A study of Mus musculus with 9 samples.

Results

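The cytosolic ribosomal proteins build the 40S and 60S subunits of the ribosome that translates nuclear-encoded messages. They were followed here in liver messenger RNA of male, wild-type C57BL/6J mice. Members were the protein-coding rows whose symbol starts with Rpl or Rps and a digit, or with Rplp and a digit, or is Rpsa, without the Rps6k kinases, and 94 of 54532 rows met this rule. They comprise 77 core subunit genes (43 of the large subunit, 3 of its stalk and 31 of the small subunit), 8 paralogs, 8 rows whose symbols are those of pseudogene copies, and Rps19bp1, which is not a ribosomal protein. The stalk is the flexible part of the large subunit that recruits translation factors.

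There were 3 libraries in each of 3 groups. The first received 326E at 30 mg/kg for 6 weeks on CDAA-HFD, a choline-deficient, amino acid-defined, high-fat diet that induces steatohepatitis. The second received vehicle on CDAA-HFD and the third received vehicle on normal chow. The series title names 326E as an enedioic acid analogue acting on ATP citrate lyase and PPARα. All sample titles begin with MCD, chow included, but the protocol in the labels names CDAA-HFD and is followed here. Nothing in the labels ties a library to its own mouse, so p-values measure only the spread between these samples, which may be technical.

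Ribosomal protein genes are highly transcribed in nearly every cell, and their products are assembled in fixed proportions. Most of their messages begin with a terminal oligopyrimidine (TOP) tract, a C at the first base followed by C or T, through which mTORC1 sets how much of the message is translated. The liver, which secretes most plasma proteins, has a high demand for translation. Several members also work outside the ribosome, RPL5 and RPL11 by binding the p53 regulator MDM2. A level of messenger RNA does not measure translation.

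The bases around the annotated start were read from RefSeq (GRCm38.p6), which held 57 of the 77 core symbols. They were searched for a TOP-like run of C and T. A C followed by at least 4 C or T lay exactly at the start base in 13 of the 57, or 22.8%, against 3.01% of 27025 genes in the same table, and a run of this kind began within 10 bases of the start in 59.6% against 34.4%. Only the strand of the gene was searched. The windows run from 20 bases before the start to 10 bases from it, and capitals mark a run that began within 10 bases of the start. The first 6 are members with a role outside the ribosome or used as reference genes, and Rps15a and Rpl38 were added after their values were seen.
Rps6, chr4:86857358-86857387, minus strand: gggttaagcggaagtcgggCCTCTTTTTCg
Rps18, chr17:33955656-33955685, minus strand: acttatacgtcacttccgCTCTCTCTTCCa
Rpl13a, chr7:45128736-45128765, minus strand: gataagaaaccctgcgacaagaCCTCCTCC
Rpl5, chr5:107900508-107900537, plus strand: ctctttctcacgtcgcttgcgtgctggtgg
Rpl11, chr4:136053384-136053413, minus strand: gcctcctgacccataaggccacggggccgg
Rplp0, chr5:115559447-115559476, plus strand: acgtcgtcttcgggtttcgaggaccgcctg
Rps15a, chr7:118116138-118116167, minus strand: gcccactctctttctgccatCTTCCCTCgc
Rpl38, chr11:114668560-114668589, plus strand: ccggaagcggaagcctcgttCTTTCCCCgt
The run in Rps15a and Rpl38 starts at the start base itself. In Rpl5, Rpl11 and Rplp0 no run began within 10 bases of the start. Runs farther upstream, as in Rpl5, Rpl11 and Rps15a, are not marked.

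Depth was similar across libraries, with 13275888 to 17058316 reads assigned to genes. Markers of hepatocytes summed to between 27406 and 52863 FPKM (fragments scaled to gene length and library size) in all 9 libraries, as fits the tissue label. Macrophage markers summed to 525 to 923 FPKM with 326E, 988 to 1470 with CDAA-HFD vehicle and 165 to 184 on chow. Of the 10 macrophage markers, 6 fell with 326E against vehicle and 9 rose with vehicle against chow. Hepatocyte markers summed to 27406 to 38873 FPKM with 326E, 29127 to 44485 with vehicle and 46499 to 52863 on chow, with 6 of 9 lower in vehicle than on chow. Stellate cell markers summed to 179 to 214 FPKM with 326E, 263 to 375 with vehicle and 66.5 to 84.4 on chow, and 5 of 10 fell with 326E against vehicle and 7 rose with vehicle against chow. Over all tested genes 11.5% were called (adjusted p under 0.05 by limma) with 326E against vehicle and 41.6% with vehicle against chow. The part of the marker shifts in the values below was not tested. In bulk tissue fewer cells of a type and less RNA per cell cannot be told apart.

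All 77 core genes passed the filter of at least 0.5 FPKM in at least 3 libraries, and 86 of the 94 members did. Mean core levels over 9 libraries ran from 0.673 FPKM for Rps10 to 724 FPKM for Rplp1, with a median of 71.5 FPKM. Levels were at least 100 FPKM for 26 core genes, between 10 and 100 for 46 and under 10 for 5. The highest were Rplp1, an acidic stalk protein, Rps3a1 at 369.6 FPKM, Rplp0, the stalk base, at 308 FPKM, Rpl4 at 273 FPKM and Rps14 at 272 FPKM. Rpl4 and Rps14 do not differ beyond their spread, while Rplp1 stood above every other core gene in every library.

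The 5 core genes under 10 FPKM were Rpl7a, Rpl21, Rpl13a, Rpl24 and Rps10. Reads of many members can also match copies. All 50-base stretches of the coding sequence were found in another annotated gene for 29 core genes, and at least 80% for 57. The counted length also exceeded the coding length by 1.22 to 16.1 times, the most for Rps15a with 6270 counted and 390 coding bases. Per kilobase of coding sequence instead of counted length, the order of levels had a Spearman correlation of 0.66 with the FPKM order over the 77 genes, a description only. Comparisons of level between genes therefore carry these limits. Between groups within a gene the counted length cancels, but reads shared with copies or a length trend that differs between libraries need not. Removing such a trend moved the core median from -0.20 to -0.26 for 326E against vehicle. It moved from -0.00 to 0.08 for vehicle against chow and from -0.14 to -0.09 for 326E against chow.

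Taken as 1 family, the core genes held 1.46%, 1.18% and 1.19% of assigned reads with 326E, against 1.41%, 1.59% and 1.51% with CDAA-HFD vehicle and 1.11%, 1.24% and 1.03% on chow. All 3 vehicle values lay above all 3 chow values, while the 326E values overlapped both groups. The summed level was 7859, 6325 and 7129 FPKM with 326E, 7395, 7966 and 8756 FPKM with vehicle, and 7792, 8910 and 7456 FPKM on chow. In that scaling the groups overlapped, with means of 7104 ± 767, 8039 ± 684 and 8053 ± 761 FPKM (SD, n = 3 each). The measures differ in the library size used, and the deposited sizes are 0.83 to 1.19 of the assigned totals and lowest for chow. No test was made of the sums.

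**Figure D1:**
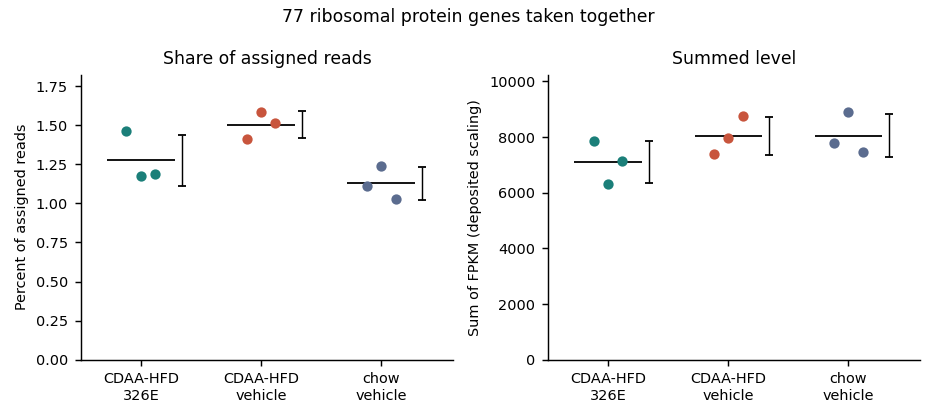
The 77 core ribosomal protein genes together in each library, as percent of assigned reads (left) and as the sum of FPKM in the deposited scaling (right), with 1 point a library, the mean as a line and ± SD as a bar. By share, vehicle libraries (1.41% to 1.59%) lie above chow libraries (1.03% to 1.24%), and by summed FPKM the groups overlap.

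With 326E against CDAA-HFD vehicle, 5 of the 86 tested members fell, all of them core genes, and 0 rose, in limma with Benjamini-Hochberg adjustment over 13737 genes. Over all tested genes 11.5% were called in this comparison, against 5.81% of the members. At an unadjusted p under 0.05, 23 members were lower and 0 higher. The share of all genes at that threshold, or with a negative change, is not given here, so no excess can be read from such counts. Limma-voom on whole reads called 8 members lower and 0 higher, and 13.5% of all tested genes in either direction. The median log2 fold change of FPKM+1 was -0.20 over the core genes, of which 60 had a negative value, and -0.02 over all tested genes. The small subunit had a median of -0.28, the large subunit -0.17 and the stalk -0.22.

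Rpl30, a large subunit protein that in yeast represses splicing of its own transcript, had 15.6, 14.0 and 20.3 FPKM with 326E, against 30.0, 31.7 and 33.0 FPKM with vehicle. Its highest 326E library stayed below the lowest vehicle library. The log2 fold change was -0.90 ± 0.19 (SE, adjusted p = 0.0191), the largest fall of any core gene in this comparison.

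Rps15a, a small subunit protein, had 20.6, 19.7 and 24.3 FPKM with 326E, against 32.4, 28.7 and 29.8 FPKM with vehicle, and the groups were apart. The log2 fold change was -0.48 ± 0.10 (SE, adjusted p = 0.0191). Rps19, whose human counterpart is the gene most often mutated in Diamond-Blackfan anaemia, had 26.0, 22.9 and 30.2 FPKM with 326E, against 37.0, 34.7 and 33.9 FPKM with vehicle. It fell by 0.41 on the log2 scale (SE 0.11, adjusted p = 0.0404).

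Rps6, the substrate of S6 kinase in the small subunit, had 161, 153 and 182 FPKM with 326E, against 224, 212 and 222 FPKM with vehicle. All 326E libraries lay below all vehicle libraries, with a log2 fold change of -0.41 ± 0.11 (SE, adjusted p = 0.0436). Rpl3, close to the peptidyl transferase centre, had 71.3, 63.2 and 72.4 FPKM with 326E, against 93.2, 83.6 and 92.9 FPKM with vehicle. It fell by 0.38 on the log2 scale (SE 0.10, adjusted p = 0.0405).

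The core gene at the median of this comparison was Rps2, with a log2 fold change of -0.20 ± 0.13 (SE, adjusted p = 0.327). The highest value was that of Rpl23a, at 0.43 ± 0.54 (SE, adjusted p = 0.646), a gene whose libraries spread widely within groups. The count of 5 depended on single libraries, as did the calls over all genes. It was 0 without 326E replicate 1, without 326E replicate 2 or without vehicle replicate 3, 2 without vehicle replicate 1 or chow replicate 1, and 3 without vehicle replicate 2 or chow replicate 3. The adjusted p of Rpl30 was between 0.0579 and 0.0729 in the fits that gave 0. The core median stayed below 0 in each of the 9 fits that left out a library, from -0.25 to -0.12. Over 23 alternatives of processing or samples, the call was kept in 19 for Rpl30, 18 for Rps15a and 13 for Rpl3. For Rps19 and Rps6 it was kept in 11 each.

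**Figure D2:**
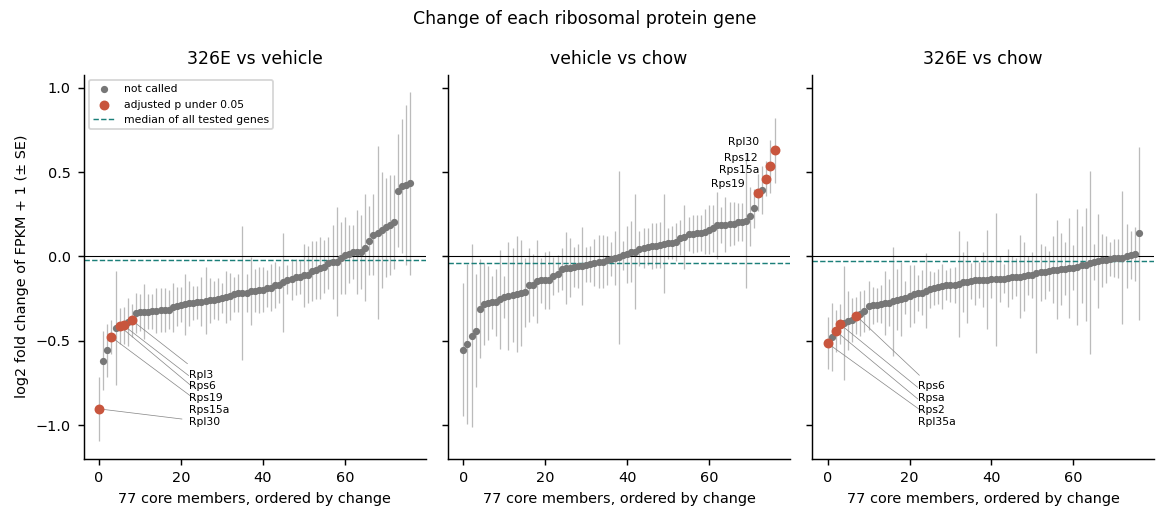
Log2 fold change of FPKM+1 for each of the 77 core genes, ordered within each comparison, with ± SE as grey bars, called genes in red and the median of all tested genes as a dashed line. With 326E against vehicle 5 genes were called lower, with vehicle against chow 4 higher, and with 326E against chow 4 lower.

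With CDAA-HFD vehicle against chow, the family as a whole stayed near the median of all genes. Of 86 tested members 5 rose and 3 fell, or 9.30%, while 41.6% of all tested genes were called in this comparison. The median log2 fold change was -0.00 over the core genes, 38 positive and 39 negative, against -0.04 over all tested genes. The vehicle libraries are the same ones as in the comparison with 326E, so the values of both comparisons are linked. Among core genes 4 rose, namely Rpl30, Rps12, Rps15a and Rps19, and 0 fell, with 0 lower at an unadjusted p under 0.05 and 0 lower by limma-voom.

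Rpl30 had the largest rise, with 30.0, 31.7 and 33.0 FPKM with vehicle, against 14.9, 21.1 and 25.5 FPKM on chow, and a log2 fold change of 0.63 ± 0.19 (SE, adjusted p = 0.0266). Chow libraries were spread more than vehicle libraries, but the groups did not overlap. Rps12, a small subunit protein that monitors ribosomal balance in Drosophila cell competition, had 57.7, 74.6 and 66.9 FPKM with vehicle, against 43.7, 56.5 and 37.6 FPKM on chow. It rose by 0.53 on the log2 scale (SE 0.16, adjusted p = 0.0234). Its 326E values, 48.4, 42.4 and 43.1 FPKM, lay below those of vehicle with an adjusted p of 0.0527, which misses the threshold.

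Rps15a had 32.4, 28.7 and 29.8 FPKM with vehicle, against 22.5, 21.5 and 21.1 FPKM on chow, a log2 fold change of 0.46 ± 0.10 (SE, adjusted p = 0.00589). Rps19 had 37.0, 34.7 and 33.9 FPKM with vehicle, against 26.6, 26.4 and 27.5 FPKM on chow, a log2 fold change of 0.38 ± 0.11 (SE, adjusted p = 0.0202). Chow libraries of both genes were nearly level. Over the 23 alternatives, the diet call was kept in 22 for Rps15a, 19 for Rps19, 18 for Rps12 and 17 for Rpl30. The lowest core value was that of Rpl28, at -0.55 ± 0.39 (SE, adjusted p = 0.295), and the median gene was Rpl38, at -0.00 ± 0.51 (SE, adjusted p = 0.995).

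The diet result depends on how libraries are scaled. With FPKM scaled to total assigned reads, the median log2 fold change of all genes moved to 0.25, and 37 members were called higher and 0 lower. With quantile normalization 36 were called higher and 1 lower. Of all 13737 tested genes, 6035 were called with total reads, 5074 of them higher. With quantiles 5714 were called, 2530 of them higher. Relative to the median of all genes, the core median was 0.03 higher in the deposited scaling, 0.13 higher with total reads and 0.42 higher with quantiles. For 326E against vehicle the same relative values were -0.18, -0.19 and -0.26, with 9 and 14 members called lower in the alternative scalings. With only vehicle replicate 2 kept in the vehicle group, the core median was 0.00 for vehicle against chow and -0.16 for 326E against vehicle. Without vehicle replicate 2 or 3, or chow replicate 1, 3 members were called higher with diet, 2 of them core genes. The 3 called lower became 0 without vehicle replicate 1 or chow replicate 1, and 1 without vehicle replicate 2 or chow replicate 3. Over all tested genes 34.2% to 36.4% were called in these fits, against 41.6% with every library.

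With 326E against chow, 5 of 86 members fell and 0 rose, or 5.81% against 26.8% of all tested genes. At an unadjusted p under 0.05, 14 members were lower and 0 higher, and limma-voom called 0 higher. Shares of all genes at that unadjusted threshold, or with negative values, are not given here, so no excess can be read from such counts. The core median was -0.14 against -0.02 over all genes, and 73 of 77 core genes had negative values. Scaled to total reads, 5 members were called higher and 0 lower, and by quantiles 4 higher and 0 lower, so the direction of this comparison depends on the scaling. Between those scalings the median of all genes moved to 0.24 with total reads. Of all tested genes, 4547 were called with total reads, 3953 of them higher. With quantiles 3166 were called, 1653 of them higher.

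Rpl35a, a large subunit protein whose human counterpart is also a Diamond-Blackfan gene, had 7.85, 7.86 and 9.9999 FPKM with 326E, against 12.3, 15.1 and 10.8 FPKM on chow. The groups did not overlap, and the log2 fold change was -0.51 ± 0.16 (SE, adjusted p = 0.0375). Rps2, at the messenger RNA entry site, had 213, 186 and 243 FPKM with 326E, against 296, 277 and 296 FPKM on chow, a log2 fold change of -0.44 ± 0.13 (SE, adjusted p = 0.0293). Under quantile normalization Rps2 was at 0.11 instead.

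Rpsa, also known as the laminin receptor, had 127, 107 and 123 FPKM with 326E, against 156.5, 167 and 148 FPKM on chow. It fell by 0.40 on the log2 scale (SE 0.12, adjusted p = 0.0337). Rps6 had 161, 153 and 182 FPKM with 326E, against 213, 223 and 197 FPKM on chow, with a log2 fold change of -0.35 ± 0.11 (SE, adjusted p = 0.0413). With total reads or quantiles Rps6 was at 0.01 and 0.06. Over the 23 alternatives, the call against chow was kept in 8 for Rps6, 15 for Rps2 and 14 each for Rpl35a and Rpsa. The highest core value was that of Rpl38, at 0.14 ± 0.51 (SE, adjusted p = 0.876), and the median gene was Rps10, at -0.14 ± 0.16 (SE, adjusted p = 0.565). The count of 5 lower was 0 without 326E replicate 2, 1 without 326E replicate 1 or chow replicate 1, and 3 without vehicle replicate 1 or chow replicate 3. The 4 core genes among them became 0 without 326E replicate 1 or 2 or chow replicate 1, 1 without chow replicate 2, and 2 without vehicle replicate 1 or chow replicate 3. Over all tested genes 18.2%, 17.5%, 19.9%, 22.3%, 27.0% and 20.3% were called in these fits, in this order, against 26.8% with every library.

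**Figure D3:**
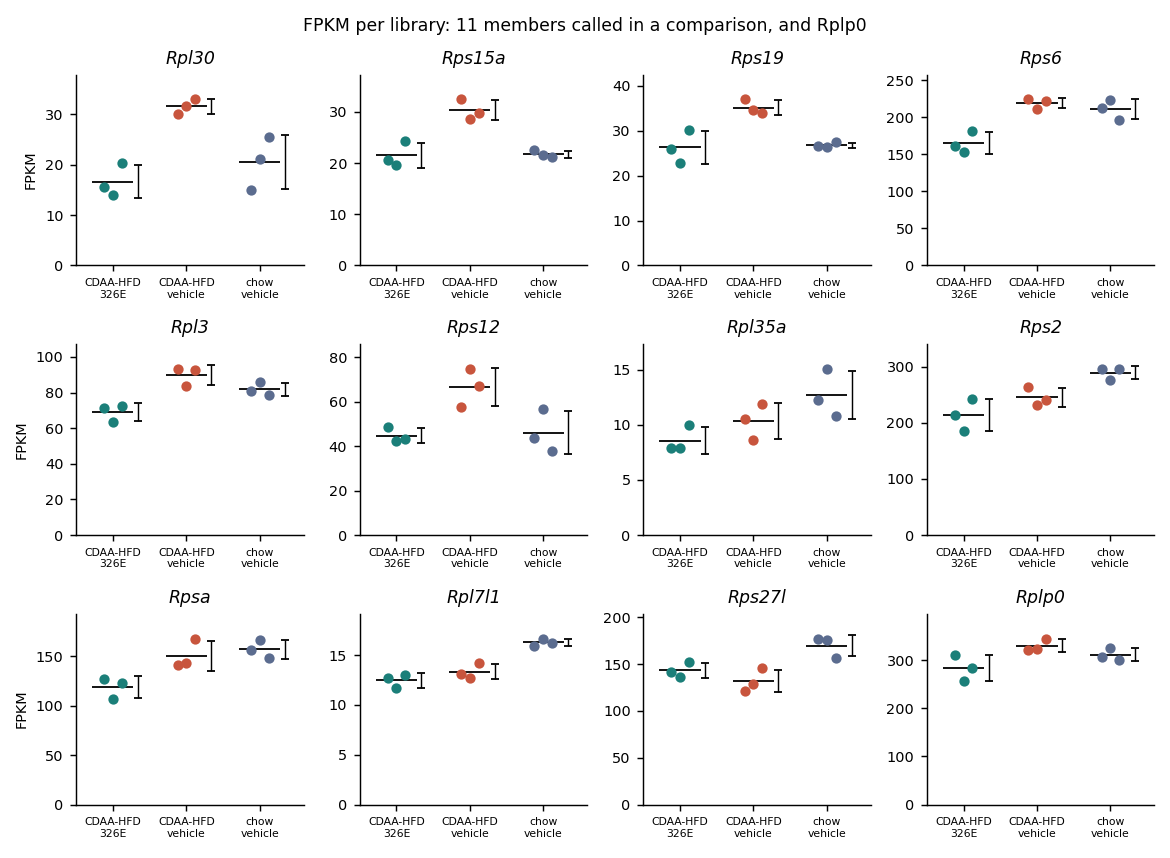
FPKM in each library (1 point each, mean as a line, ± SD as a bar) for 11 members called in at least 1 comparison and for Rplp0, from the CDAA-HFD 326E group on the left to the chow group on the right. Rpl30, Rps15a and Rps19 are highest in the 3 vehicle libraries, Rpl7l1 is highest in the 3 chow libraries, and Rplp0 has 257 to 311 FPKM with 326E, 320.4 to 345 with vehicle and 301 to 326 on chow.

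Rpl30 is a member whose value is tied to a copy. Rpl30 (chromosome 15, 34440505 to 34443640, mm10) has a processed copy without introns, Rpl30-ps10, on chromosome X at 71803688 to 71804034. The copy's 347 bases match the Rpl30 transcript in 99.1%, with 3 mismatches and an identical run of 251 bases. Windows of 21 bases around 2 of the mismatches show how little sets the genes apart, with the differing base in capitals and positions counted from 1 at the first base of the start codon. The substitutions, Rpl30 base first, are C20T and G96A. The first letter of the window around position 20 also differs.
Rpl30, around position 20: gcaaagaagaCgaaaaagtct
Rpl30-ps10, around position 20: tcaaagaagaTgaaaaagtct
Rpl30, around position 96: tgggctacaaGcagactctga
Rpl30-ps10, around position 96: tgggctacaaAcagactctga

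Reads assigned to Rpl30-ps10 ran the other way from those of Rpl30. The copy had 52.5, 42.1 and 24.7 FPKM with 326E, against 4.58, 10.5 and 3.35 FPKM with vehicle and 51.4, 47.4 and 23.9 FPKM on chow. All 3 vehicle libraries were low. Its log2 fold change was 2.58 ± 0.42 for 326E against vehicle (SE, adjusted p = 0.00737) and -2.61 ± 0.42 for vehicle against chow (SE, adjusted p = 0.00125), both by limma. Within each of the 326E and chow groups, replicate 3 had the highest Rpl30 and the lowest copy.

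Added together as RPM, reads scaled to the deposited library sizes, Rpl30 and this copy had 65.2, 56.7 and 69.8 with 326E, against 92.2, 99.4 and 101 with vehicle and 62.9, 80.1 and 85.3 on chow. Vehicle was still the highest group. With the reads of every pseudogene row added to its member, an alternative chosen after seeing the data, Rpl30 had a log2 fold change of -0.57 for 326E against vehicle (adjusted p = 0.0231) and 0.34 for vehicle against chow (adjusted p = 0.0561, against 0.00117 to 0.169 over all alternatives). The call for the diet is thus lost and that for 326E kept. Rps15a was at -0.47, Rps19 at -0.41, Rps6 at -0.40 and Rpl3 at -0.39 for 326E against vehicle in that fit, with adjusted p from 0.0218 to 0.0453.

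Rps27 on chromosome 3 and Rps27rt on chromosome 9, an intronless copy, are identical over 341 aligned bases, and Rps12 on chromosome 10 and Rps12-ps3 on chromosome 19 over 450. The first 60 coding bases, with no base to set the copy apart, are shown because such rows cannot be told apart by these bases, and how reads were assigned between them is not given in the sources used here.
Rps27: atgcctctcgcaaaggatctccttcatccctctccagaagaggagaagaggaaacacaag
Rps27rt: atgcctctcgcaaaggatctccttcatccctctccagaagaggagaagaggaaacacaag
Rps12: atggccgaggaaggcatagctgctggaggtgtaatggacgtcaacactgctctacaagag
Rps12-ps3: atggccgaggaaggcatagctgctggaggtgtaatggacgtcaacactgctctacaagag

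Rps27, a zinc finger protein of the small subunit, had 53.6, 46.6 and 44.4 FPKM with 326E, against 51.9, 96.0 and 54.5 FPKM with vehicle and 46.6, 111 and 49.2 FPKM on chow. Rps27rt had 294, 182 and 258 FPKM with 326E, against 317, 165 and 315 FPKM with vehicle and 286, 139.7 and 267 FPKM on chow. Vehicle replicate 2 and chow replicate 2 were high in Rps27 and low in Rps27rt. Summed, they had 166, 117 and 143 RPM with 326E, 173, 162 and 175 with vehicle and 156, 168 and 151 on chow. The sums vary less within vehicle and chow than either row.

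Rps12-ps3, a protein-coding row by its annotation, moved as Rps12 did. As Rps12-ps3 and Rps12 are identical over 450 aligned bases, this is not an independent observation. Rps12-ps3 was measured as follows. It had 178.5, 152 and 163 FPKM with 326E, 197, 234 and 274 FPKM with vehicle and 152, 172.5 and 144 FPKM on chow. For vehicle against chow the log2 fold change was 0.58 ± 0.14 (SE, adjusted p = 0.0112), and this call held in all 23 alternatives. With Rps12-ps3 and the pseudogene rows of Rps12 added to it, the change of Rps12 by limma was -0.53 for 326E against vehicle (adjusted p = 0.0434). For vehicle against chow it was 0.56 (adjusted p = 0.0126).

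**Figure D4:**
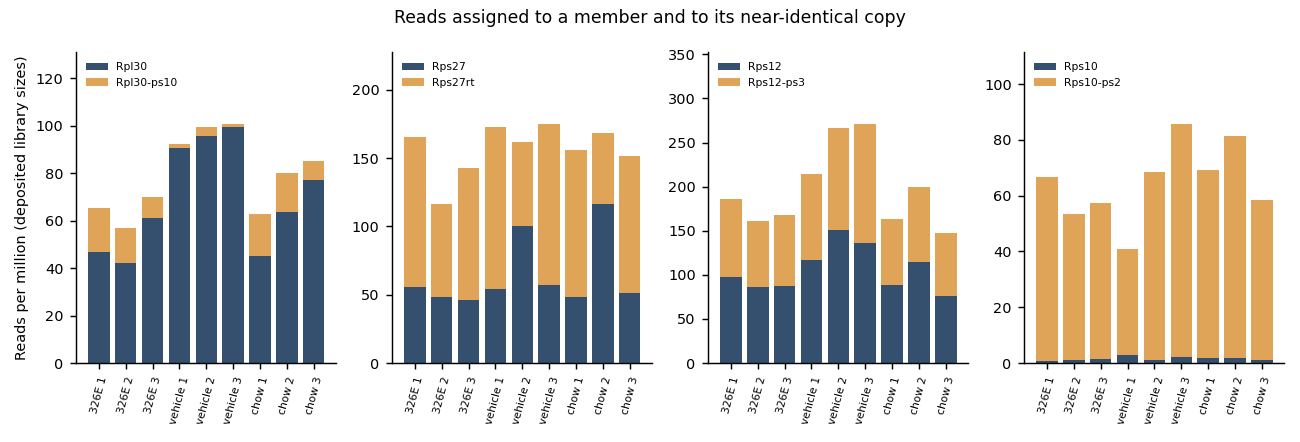
RPM (reads scaled to the deposited library sizes) assigned to 4 members (dark) and to a near-identical copy of each (light), stacked, in each library from 326E on the left to chow on the right. The copy of Rpl30 nearly vanishes in the 3 vehicle libraries, vehicle 2 and chow 2 shift from Rps27rt to Rps27, and Rps10 holds few reads beside Rps10-ps2.

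For Rps10 a copy held nearly all reads. Rps10 had between 0.343 and 1.24 FPKM in all libraries, while Rps10-ps2 on chromosome 16 had 106 to 133 FPKM with 326E, 76.5 to 169 with vehicle and 116 to 160.5 on chow. The pseudogene rows with the highest FPKM were Rpl17-ps10, at 172 ± 16.0, 196 ± 24.6 and 215 ± 26.3 FPKM with 326E, vehicle and chow (SD, n = 3 each), and Rpl17-ps3, at 147 ± 25.0, 212 ± 8.71 and 186 ± 22.5 FPKM. In all, 297 pseudogene rows carried the name of a member and made up 10.2% to 12.6% of the family's summed FPKM. Of the 81 tested, 1 rose and 3 fell with 326E against vehicle, 0 rose and 6 fell with vehicle against chow, and 0 rose and 8 fell with 326E against chow, by limma. Over all tested genes 11.5%, 41.6% and 26.8% were called in these comparisons, in this order. The pseudogene row that rose is Rpl30-ps10. With all pseudogene rows added, the members' share of assigned reads was 1.57%, 1.27% and 1.28% with 326E, 1.52%, 1.70% and 1.63% with vehicle and 1.21%, 1.33% and 1.11% on chow. The order of groups was the same as without them.

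Of the members with a role outside the ribosome, Rps6, Rps19 and Rpsa were called in at least 1 comparison, as given above, and Rpl5 and Rpl11 in none. Rpl5, which carries 5S RNA and binds MDM2, had 64.2, 55.1 and 57.9 FPKM with 326E, against 60.2, 74.2 and 82.3 FPKM with vehicle and 66.0, 76.4 and 63.8 FPKM on chow. Its partner Rpl11 had 46.9, 29.4 and 29.3 FPKM with 326E, against 32.4, 31.0 and 43.1 FPKM with vehicle and 37.5, 49.9 and 33.1 FPKM on chow. Groups overlapped for both, and the adjusted p ranged from 0.216 to 0.938 over the 3 comparisons.

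Several members serve as reference genes of quantitative PCR. Rplp0 had 311, 257 and 283 FPKM with 326E, against 320.4, 324 and 345 FPKM with vehicle and 307, 326 and 301 FPKM on chow. All 326E libraries lay below all vehicle libraries, at a log2 fold change of -0.22 ± 0.11 (SE, adjusted p = 0.241). Rps18 had 84.8, 71.8 and 68.4 FPKM with 326E, against 91.7, 86.6 and 102 FPKM with vehicle and 97.4, 109.8 and 85.6 FPKM on chow, likewise with no call (adjusted p = 0.153 and 0.0627 against vehicle and chow). Rpl13a had 3.06 to 4.53 FPKM with 326E, 4.42 to 5.57 with vehicle and 3.19 to 6.06 on chow.

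The stalk proteins Rplp1 and Rplp2 were not called either. Rplp1 had 799, 613 and 708 FPKM with 326E, against 648, 714 and 815 FPKM with vehicle and 739, 819 and 666 FPKM on chow. Rplp2 had 42.6, 38.3 and 48.3 FPKM with 326E, against 55.4, 46.6 and 48.4 FPKM with vehicle and 41.2, 44.0 and 44.7 FPKM on chow, where vehicle lay above chow without a call (0.20 ± 0.11, adjusted p = 0.178). The stalk held 13.3% to 14.7% of the core FPKM in the 9 libraries.

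Rps27a, made as a fusion to ubiquitin, had 52.0, 28.1 and 21.1 FPKM with 326E, 26.8, 25.6 and 29.1 with vehicle and 26.6, 32.1 and 38.3 on chow. Only 326E replicate 1 exceeded the rest. Rps3, which also acts in DNA repair, had 53.7, 48.1 and 57.5 FPKM with 326E, against 68.2, 62.1 and 62.3 FPKM with vehicle and 61.2, 63.1 and 57.5 FPKM on chow. Its change of -0.27 ± 0.10 against vehicle was not called (SE, adjusted p = 0.112), and 8.09% of its 50-base coding stretches were found in another gene. Rpl22, an RNA-binding large subunit protein, had 31.6 to 36.9 FPKM with 326E, 35.0 to 39.9 with vehicle and 35.3 to 40.6 on chow.

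Of the 8 paralogs, 4 passed the filter. Rps27l, a p53-responsive paralog of Rps27, had 141, 136 and 152 FPKM with 326E, against 122, 129 and 145 FPKM with vehicle and 177, 175 and 157 FPKM on chow. It fell by 0.36 on the log2 scale with vehicle against chow (SE 0.11, adjusted p = 0.0267), but was at 0.03 with total reads and 0.06 with quantiles. Rpl7l1, a paralog of Rpl7 that acts in assembly of the large subunit, had 12.7, 11.7 and 13.0 FPKM with 326E, against 13.2, 12.7 and 14.2 FPKM with vehicle and 15.9, 16.7 and 16.3 FPKM on chow. Chow lay above both diet groups, and Rpl7l1 was called at -0.27 ± 0.08 for vehicle against chow (SE, adjusted p = 0.0272) and -0.36 ± 0.08 for 326E against chow (SE, adjusted p = 0.0119). With total reads these became 0.10 and -0.02.

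Rpl22l1, the paralog that competes with Rpl22, had 11.8, 11.2 and 11.04 FPKM with 326E, against 10.7, 14.3 and 15.7 FPKM with vehicle and 12.3, 10.01 and 11.5 FPKM on chow, with no call. Rpl36al stayed between 0.204 and 0.687 FPKM. Rpl3l, known from heart and skeletal muscle, and Rpl39l and Rpl10l, known from testis, were at or near 0, with at most 0.047, 0.219 and 0 FPKM in any library. Rpl27-ps3, a row named as a copy, had 1.91, 1.86 and 2.07 FPKM with 326E, 1.42, 1.86 and 1.83 with vehicle and 3.26, 1.95 and 3.45 on chow, and fell with vehicle against chow (-0.50 ± 0.16, SE, adjusted p = 0.0283). Rps19bp1, which binds RPS19, had 6.85 to 8.26 FPKM with 326E, 7.66 to 11.6 with vehicle and 8.66 to 10.6 on chow.

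Within groups, the core genes varied together. The first component of their deviations from the group means carried 74.5% of the within-group variance, and 63 of the 77 weighed in the same direction. Deviations were not scaled, so genes with a wide spread weigh most. No such value is given for other genes, and whether the pattern is particular to this family was not tested. Chow replicate 2, vehicle replicate 3 and 326E replicate 1 were on the high side, vehicle replicate 1 on the low side. The members most involved were Rpl23a, Rpl38, Rps28, Rpl28 and Rpl41. Rpl23a had 87.1, 58.4 and 47.8 FPKM with 326E, against 17.1, 59.2 and 94.4 FPKM with vehicle and 55.7, 93.7 and 50.4 FPKM on chow. Rpl41, the shortest ribosomal protein, had 208, 87.8 and 101 FPKM with 326E, against 111, 145 and 181 FPKM with vehicle and 86.0, 209 and 104 FPKM on chow.

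Rpl38, known in mouse for its effect on translation of Hox messages, had 97.7, 35.9 and 35.4 FPKM with 326E, against 28.8, 53.4 and 60.2 FPKM with vehicle and 31.3, 92.2 and 32.2 FPKM on chow. In each of these genes 1 library of a group stood well above or below the others, and none was called. Rps3, Rps6 and Rpl26 had the weights closest to 0, and Rpl17, Rps13 and Rps14 weighed in the opposite direction. The pooled within-group SD of log2(FPKM+1) was 0.067 for Rpl18 and 0.81 for Rpl23a, with a median of 0.18 over the core genes and 0.17 over all tested genes with a mean of at least 10 FPKM.

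Across the 77 genes, this SD had a Spearman correlation of -0.43 with coding length, -0.38 with mean FPKM and -0.33 with counted length. The correlation was 0.38 with the share of coding stretches found in other genes, 0.08 with the number of such genes and 0.04 with coding GC content. These values only describe genes that share the same 9 libraries. The share of reads from mitochondrial genes was 5.99%, 7.31% and 7.23% with 326E, 5.61%, 5.68% and 5.82% with vehicle and 8.15%, 5.94% and 8.46% on chow. In the 326E and chow groups the library high in the pattern had the lowest mitochondrial share of its group, and in vehicle replicate 3 it had the highest. The part of this in the pattern was not tested.

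**Figure D5:**
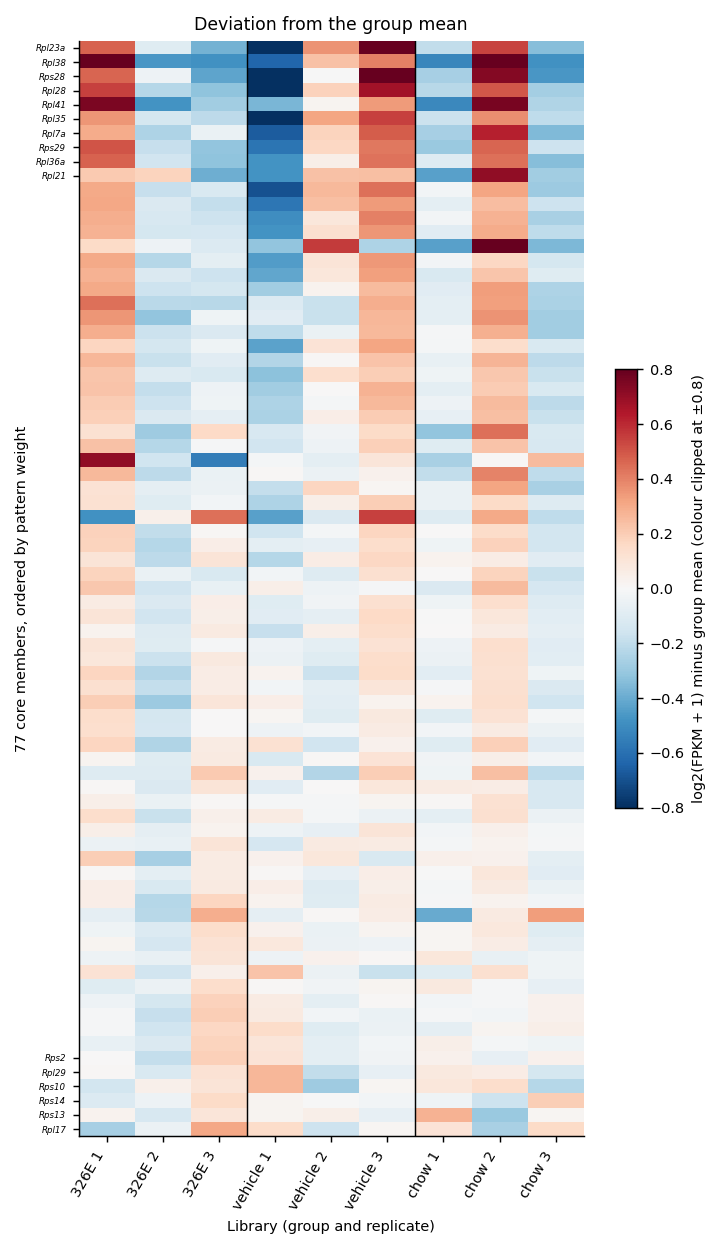
Deviation of each of the 77 core genes (rows, ordered by their weight in the shared pattern, with names at both ends) from its group mean of log2(FPKM+1) in each of the 9 libraries (columns, 326E, vehicle and chow from left to right). Red is above and blue below the group mean, and the upper rows are red together in 326E 1, vehicle 3 and chow 2 and blue together in vehicle 1.

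The balance among members was read as the log2 level of each core gene minus the median of the core genes in the same library, which a single scaling factor per library cannot change. For 326E against vehicle, groups did not overlap for 10 of 77 genes, 2 lower and 8 higher. Rpl30 was lower by 0.77 and Rps12 by 0.40, while Rpl7a was higher by 0.63 and Rpl19 by 0.36. For vehicle against chow the groups were apart for 10 genes, with Rpl30 higher by 0.67, Rps12 by 0.56, Rps15a by 0.50, Rps19 by 0.41 and Rpl12 by 0.31, and Rpl36 and Rpl27a each lower by 0.26. For 326E against chow they were apart for 8 genes, the farthest being Rpl27a, lower by 0.30. By the same measure, groups were apart for 13% of the core genes against 25% of all tested genes for 326E against vehicle, 13% against 41.3% for vehicle against chow, and 10.4% against 33.7% for 326E against chow. All genes were set against the median of the core here, and these shares were not tested. By adjusted p, 11.5%, 41.6% and 26.8% of all tested genes were called in these comparisons, in this order.

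Fau and Rack1 belong to the ribosome but lie outside the name rule, and neither was called in any comparison by limma. Fau, a ubiquitin-like fusion, had 185, 172 and 213 FPKM with 326E, against 237, 199.7 and 220.3 FPKM with vehicle and 233, 242 and 202 FPKM on chow. Rack1, a scaffold of the small subunit, had 68.0, 56.2 and 64.0 FPKM with 326E, against 69.8, 74.8 and 83.1 FPKM with vehicle, apart but not called (adjusted p = 0.142). Rack1 was lower with 326E than with vehicle at an unadjusted p under 0.05, and Fau was not.

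For other genes of the pathway, counts with 326E against vehicle stand beside 11.5% of all tested genes called. Among 44 ribosome biogenesis genes, 0 rose and 1 fell against vehicle, namely Heatr1, which acts in ribosomal RNA processing, with 3.196, 3.64 and 3.95 FPKM with 326E against 5.41, 4.85 and 4.40 with vehicle (-0.36 ± 0.10, SE, adjusted p = 0.0483). At an unadjusted p under 0.05, for which no share of all genes is given here, 2 biogenesis genes were higher and 7 lower. The list's median was -0.14 against -0.02 over all genes. Among 36 initiation, elongation and release factors, 14 other TOP messages and 14 RNA polymerase I genes, 0 were called in this comparison by limma, with 4, 0 and 2 at an unadjusted p under 0.05.

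With vehicle against chow, 6 of the 44 biogenesis genes rose and 4 fell. Over all tested genes 41.6% were called for vehicle against chow and 26.8% for 326E against chow. Each list in this paragraph had a lower share. Nop58, a core protein of box C/D particles, rose by 0.64 (SE 0.17, adjusted p = 0.014), and Nop10, of box H/ACA particles, fell by 0.85 (SE 0.25, adjusted p = 0.0216). Of the 36 factors 1 rose and 6 fell. Eif6, which keeps free large subunits from joining, had 34.2, 22.03 and 27.8 FPKM with vehicle, against 13.1, 15.4 and 14.3 FPKM on chow, and rose by 0.90 (SE 0.14, adjusted p = 0.00118). Eif4a2, an RNA helicase of initiation, fell by 0.68 (SE 0.11, adjusted p = 0.00137). Of 9 ribosome quality control genes 0 rose and 2 fell, Pelo by 0.45 and Hbs1l by 0.42, which together rescue stalled ribosomes. Of the 14 other TOP messages, Hnrnpa1 rose by 0.59 and Eif4b fell by 0.36, and of the RNA polymerase I genes Taf1d rose by 0.30. With 326E against chow, 0 biogenesis genes rose and 3 fell, with Emg1 at -0.68 and Bccip at -0.41, and 0 factors rose and 4 fell, with Eif5 at -0.48 and Eif3i at -0.45.

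Of 19 genes in mTORC1 and TOP control, 1 rose and 7 fell with vehicle against chow. Over all tested genes 41.6% were called in this comparison, a similar share. The riser was the transcription factor Myc at 3.24 ± 0.57 (SE, adjusted p = 0.00188 by limma). Pdcd4, an inhibitor of the initiation helicase that S6 kinase marks for degradation, had 18.5, 18.4 and 20.7 FPKM with 326E, against 13.2, 13.6 and 15.8 FPKM with vehicle and 49.6, 44.1 and 54.6 FPKM on chow. It was called at 0.41 ± 0.11 for 326E against vehicle (SE, adjusted p = 0.0465) and -1.73 ± 0.11 for vehicle against chow (SE, adjusted p = 1.18e-05). Deptor, an inhibitor of mTOR, had 26.4, 34.1 and 35.6 FPKM with 326E, 30.1, 31.4 and 28.04 with vehicle and 51.0, 44.1 and 51.7 on chow. Larp1, which binds TOP messages, was at -0.55 for vehicle against chow and was among the genes that fell.

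The branch around MDM2 and p53, to which RPL5 and RPL11 connect, had the largest median change of the lists in each comparison. Like the other lists, it was chosen with earlier results of these data known, so this rank is a description only. A link to the ribosomal proteins was not tested. Of the 8 genes in the branch, 0 rose and 3 fell with 326E against vehicle. With vehicle against chow 7 rose and 0 fell, and with 326E against chow 4 rose and 0 fell. Over all tested genes 11.5%, 41.6% and 26.8% were called in these comparisons, in this order. Medians of the 8 genes were -0.48, 0.72 and 0.32. Cdkn1a, the p21 inhibitor of the cell cycle, had 4.33, 2.68 and 1.75 FPKM with 326E, against 15.0, 9.76 and 10.9 FPKM with vehicle and 0.240, 0.869 and 0.384 FPKM on chow. Its log2 fold change for 326E against vehicle was -1.75 ± 0.26 (SE, adjusted p = 0.00512). Mdm2 had 7.86, 7.40 and 7.38 FPKM with 326E, against 16.5, 9.41 and 13.5 FPKM with vehicle and 7.56, 7.93 and 7.72 FPKM on chow, with -0.70 ± 0.16 for 326E against vehicle (SE, adjusted p = 0.028). Eda2r, a p53 target receptor, fell by 0.73 (SE 0.12, adjusted p = 0.00683). Phlda3, another p53 target, rose by 1.75 with vehicle against chow and by 0.88 with 326E against chow. Rps27l, a p53 target among the members, had its lowest group mean in vehicle, at 132 FPKM, against 143 with 326E and 170 on chow.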

How the data were processed

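The authors deposited FPKM per gene, with gene lengths, for 9 poly(A) libraries. The submitters' processing notes name HISAT2, featureCounts and the build mm10. Strand, multi-mapping and versions are not given in the sources used here, so overlapping genes and near-identical copies are uncertain. FPKM times length gave whole reads within 0.01 in 100% of values, and these reads give the shares and limma-voom, which called 1860 genes for 326E against vehicle, 5709 for vehicle against chow and 3811 for 326E against chow. Depth sets a single read at 0.0246 to 0.0455 FPKM for a length of 2 kb.

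The test was limma (3.58.1, R 4.3.3) with a mean-variance trend, applied to log2(FPKM+1) of the 13737 genes that reached 0.5 FPKM in 3 or more libraries, with 9 libraries in 1 fit, 6 residual degrees of freedom and Benjamini-Hochberg adjustment over all tested genes in each comparison. Called means an adjusted p under 0.05. The method was tested on simulated data. Replicate pairs had a chi-square per degree of freedom of 18.8 to 72.3, far above counting noise.

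Named genes were the paralogs, members with a separate role, per comparison up to 5 called members in each direction, the core genes with the lowest, median and highest change, per list up to 2 called genes, and the 3 pseudogene rows with most FPKM. Others were chosen after their values were seen. Members and lists were chosen with earlier results of these data known. Shared 50-base stretches and copies were read from GENCODE vM21 transcripts, where 94 members were found and 90 had the deposited coordinates. Alternatives were other pseudocounts, filters, scalings and fits, each library left out, and pseudogene rows added to their member, the last chosen after seeing the data. Some items are not reported here.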

Additional observations from a re-analysis of the deposited data

How the results depend on the processing

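Counts are of the 86 tested members. For 326E against vehicle, where 5 fell, the number called lower was 3 with no filter and with only the 6 libraries compared, 8 with limma-voom on whole reads, 9 with total reads or a length trend removed, 14 with quantiles or array weights and 0 with only vehicle replicate 2 kept. For vehicle against chow 5 rose and 3 fell. With total reads 37 were higher and 0 lower, and with quantiles 36 and 1. With only the 6 libraries or the length trend removed, 1 was lower. Over all tested genes 43.9%, 41.6%, 37.7% and 41.8% were called in these fits, in this order. With only vehicle replicate 2 kept, the core median was 0.00. For 326E against chow, where 5 fell, 2 were lower with no filter, 3 with the length trend removed and 18 with array weights. With total reads 5 were higher and 0 lower, and with quantiles 4 and 0. Over all tested genes 11.7%, 27.3%, 37.6%, 33.1% and 23.0% were called in these fits, in this order. The core median moved to 0.38 and 0.34 (vehicle against chow) and to 0.21 and 0.11 (326E against chow) with total reads and quantiles. The cause was not tested.

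Deviations of same-numbered libraries of different groups had correlations from -0.24 to 0.02. With 3 libraries in each group these values cannot exclude a pairing, and the labels name none. With a replicate block, 5 members rose and 1 fell for vehicle against chow. In the others 0 rose, and 2 fell for 326E against vehicle and 2 for 326E against chow. Over all tested genes 37.6%, 7.55% and 22.4% were called in these comparisons, in this order.

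With each library left out, 0 to 6 members fell and 0 rose for 326E against vehicle, 3 to 5 rose and 0 to 3 fell for vehicle against chow, and 0 to 5 fell and 0 rose for 326E against chow. Core medians were -0.25 to -0.12, -0.08 to 0.10 and -0.24 to -0.06.

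Values that were not called and lay near 0 also changed sign under other settings. Changes of sign that involved a call in either fit came with total reads and quantiles. With total reads, vehicle against chow turned to 0.34 for Rpl22, 0.10 for Rpl7l1, 0.033 for Rps27l and 0.33 for Rpsa, and 326E against chow to 0.35 for Rplp2, 0.33 for Rps15a, 0.32 for Rps19 and 0.013 for Rps6. With quantiles, vehicle against chow turned to 0.99 for Rplp1, 0.40 for Rps2, 0.060 for Rps27l and 0.39 for Rpsa, and 326E against chow to 0.48 for Rplp0, 0.61 for Rplp1, 0.11 for Rps2 and 0.060 for Rps6. Depth limits only the members near 0.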
